A study of Mus musculus with 12 samples.

Results

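The regions described here are 433 stretches near transcription start sites (TSSs) in which H4K12ac peaks were called in the control libraries but rarely or never in the *Tip60* cKO libraries. Overlapping autosomal peaks of all 10 H4K12ac peak lists were merged into 256014 regions, of which 27103 had a peak in at least 2 lists and overlapped the 2 kb on either side of an annotated gene TSS. A promoter region was counted as lost when the number of control lists with a peak exceeded the number of *Tip60* cKO lists with a peak by 4 or 5, which held for 433 promoter regions, or 1.60%. The mirror-image difference held for 103 regions, or 0.380%, which are called gained. Among the 4603 promoter regions with a peak in 4 to 6 lists, the only ones that could meet the rule in either direction, 9.41% were lost and 2.24% gained. Since peak presence chose the regions, presence and absence of peaks in them are given as a description, without a test.

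The libraries came from sorted neuronal nuclei of the hippocampus. The 5 *Tip60* cKO mice had the tamoxifen-inducible *CaMKCreERT2* driver and 2 floxed *Tip60* alleles, and the 5 controls were mice with 2 floxed alleles and no driver. Both groups received tamoxifen as adults and were taken at day 10 after the last injection; the labels give male C57BL/6J mice of 3 months, whereas the methods name C57BL/6N mice of either sex. The driver deletes the gene in postmitotic excitatory forebrain neurons only, so that other neurons in the sort keep it, and in bulk chromatin fewer cells carrying a mark and less of the mark per cell cannot be told apart. Each library was compared with 1 pooled input library of its own genotype.

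TIP60, encoded by *Kat5*, is a lysine acetyltransferase of the MYST family that works as the catalytic subunit of a large chromatin complex and acetylates the tails of histones H4 and H2A and the variant H2A.Z. Acetylation of H4 at lysine 12 is found around active TSSs and within transcribed genes, where bromodomain proteins can bind acetylated H4 tails. Active promoters usually carry a broad acetylated domain, so a single gene can hold several peaks and lose only a flank of its domain.

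Only 8 regions with a peak in all 5 control and in no *Tip60* cKO list contained the TSS of a protein-coding gene. A region is called over a TSS when the merged region contains it, which the peak of a single library need not do. The 240 bases immediately upstream of the TSS are printed for 7 of these genes, because their start site lies inside the lost region. The window of *Mien1* was left out since it overlaps an annotated exon. Sequences are those of the RefSeq assembly GRCm38.p6 (mm10), read 5′ to 3′ on the strand of the gene, and the last base adjoins the TSS. Capitals mark matches, on either strand, to the TATA box TATAAA, the CCAAT box bound by NF-Y, the GC box GGGCGG bound by SP and KLF factors, or the RFX half-site GTTGCCA.
Slc25a18 (chr6:120773338-120773577, plus strand): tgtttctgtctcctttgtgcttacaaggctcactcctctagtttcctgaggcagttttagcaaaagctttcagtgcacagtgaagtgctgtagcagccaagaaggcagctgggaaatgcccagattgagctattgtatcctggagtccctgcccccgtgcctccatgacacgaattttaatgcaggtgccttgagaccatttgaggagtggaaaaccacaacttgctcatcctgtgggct
Aldoart2 (chr12:55564999-55565238, plus strand): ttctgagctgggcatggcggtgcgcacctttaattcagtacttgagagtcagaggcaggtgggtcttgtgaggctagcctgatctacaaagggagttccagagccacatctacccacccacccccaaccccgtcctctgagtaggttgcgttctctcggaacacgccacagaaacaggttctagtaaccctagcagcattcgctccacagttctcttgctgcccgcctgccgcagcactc
Pdyn (chr2:129699845-129700084, minus strand): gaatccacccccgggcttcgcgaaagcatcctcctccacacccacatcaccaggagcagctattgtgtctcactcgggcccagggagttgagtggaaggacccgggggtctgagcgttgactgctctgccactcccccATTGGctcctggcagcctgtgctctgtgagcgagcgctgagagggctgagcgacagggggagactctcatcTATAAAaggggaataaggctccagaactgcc
Sec14l5 (chr16:5146869-5147108, plus strand): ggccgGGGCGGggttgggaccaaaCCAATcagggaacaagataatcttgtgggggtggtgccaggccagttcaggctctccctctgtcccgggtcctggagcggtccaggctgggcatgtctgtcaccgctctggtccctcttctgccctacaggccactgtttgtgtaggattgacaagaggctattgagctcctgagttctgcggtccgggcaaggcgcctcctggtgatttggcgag
Gpld1 (chr13:24942912-24943151, plus strand): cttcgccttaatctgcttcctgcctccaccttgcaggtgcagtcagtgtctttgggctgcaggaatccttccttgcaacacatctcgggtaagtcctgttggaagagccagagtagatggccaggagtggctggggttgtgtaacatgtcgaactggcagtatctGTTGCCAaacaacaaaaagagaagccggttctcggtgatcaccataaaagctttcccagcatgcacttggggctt
Olfr527 (chr7:140333777-140334016, plus strand): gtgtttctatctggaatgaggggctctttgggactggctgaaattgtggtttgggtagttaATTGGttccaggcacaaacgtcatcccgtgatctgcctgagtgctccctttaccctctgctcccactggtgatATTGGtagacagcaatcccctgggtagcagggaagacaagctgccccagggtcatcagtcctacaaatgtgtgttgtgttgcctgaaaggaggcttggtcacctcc
Anxa4 (chr6:86793585-86793824, minus strand): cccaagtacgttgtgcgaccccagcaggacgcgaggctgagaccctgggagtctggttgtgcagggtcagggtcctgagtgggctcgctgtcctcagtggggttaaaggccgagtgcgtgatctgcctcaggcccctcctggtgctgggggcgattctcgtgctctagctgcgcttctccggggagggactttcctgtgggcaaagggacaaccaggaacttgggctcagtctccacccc

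The *Pdyn* window carries TATAAA from base -31 and a CCAAT box from base -102 relative to the TSS. The *Sec14l5* window carries the GC box from base -235 and a CCAAT box from base -216. *Olfr527* has a CCAAT box from base -179 and another from base -106, and *Gpld1* has an RFX half-site from base -75. The other motifs searched, on both strands, were the cAMP response element TGACGTCA, the E-boxes CACGTG and CAGATGG, and the sites of NRF1, ETS factors (CCGGAAG), YY1 (AAGATGG), E2F (TTTGGCGC and TTTCCCGC), ZBTB33, AP-1 (TGANTCA), MEF2 and EGR (GCGTGGGCG), of which the EGR site can overlap the GC box. None of these occurs in the printed windows, and no match to any of the 16 motifs lies in the windows of *Slc25a18*, *Aldoart2* and *Anxa4*. Among the 240-base windows upstream of all 20807 autosomal protein-coding genes, 34.6% hold CCAAT, 39.3% the GC box, 11.1% TATAAA and 3.50% the RFX half-site. GC content of the printed windows ranges from 49.6% (*Slc25a18*) to 63.8% (*Anxa4*), beside a median of 54.6% over all these promoters. A match is a description of the sequence and not a binding site.

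The libraries held 22864189 to 37077725 tags in *Tip60* cKO and 27418740 to 37923809 tags in control mice, and the lists held 64245 to 135494 and 93575 to 136409 peaks. *Tip60* cKO 5 had the fewest tags and the shortest list, and control 4 the shortest list among the controls. No listed peak means only that the signal did not reach the calling threshold with the tags of that library. All 10 neuronal marker genes (among them *Rbfox3*, *Snap25* and *Slc17a7*) had a peak in the TSS window in all 10 lists, whereas no list held one for 4 of 5 microglial, 4 of 5 oligodendrocyte, 2 of 5 astrocyte and 3 of 6 interneuron markers. *Mbp* had one in all 10 lists and *Gfap* in 9, the microglial gene *P2ry12* had one in 4 control lists and 1 *Tip60* cKO list, and endothelial markers had one in none of the control lists and in 13.3% of the combinations of marker and *Tip60* cKO list. None of these markers had a lost region; the longer astrocyte list used below holds 1 gene that did, *Fgfr3*. *Kat5* had a peak in its own TSS window in every list. The strongest peak of that window had a percent rank of 97.6 to 99.7 in control and 80.4 to 99.3 in *Tip60* cKO libraries. No gene of the TIP60 complex list had a lost region.

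The first question was how complete the loss of peaks was. Of the 433 lost regions, 72 had a peak in all 5 control lists and in no *Tip60* cKO list, 167 in all 5 control lists and in 1 *Tip60* cKO list, and 194 in 4 control lists and in no *Tip60* cKO list. Control libraries 1 to 5 had a peak in 405, 402, 393, 359 and 412 of the regions. *Tip60* cKO libraries 1 to 5 had one in 55, 41, 29, 34 and 8. The single missing control peak fell most often in control 4, with 74 of 194 regions, and the single remaining *Tip60* cKO peak most often in *Tip60* cKO 1, with 55 of 167 regions. These are the shortest list of the controls and the longest list of the *Tip60* cKO mice.

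**Figure D1:**
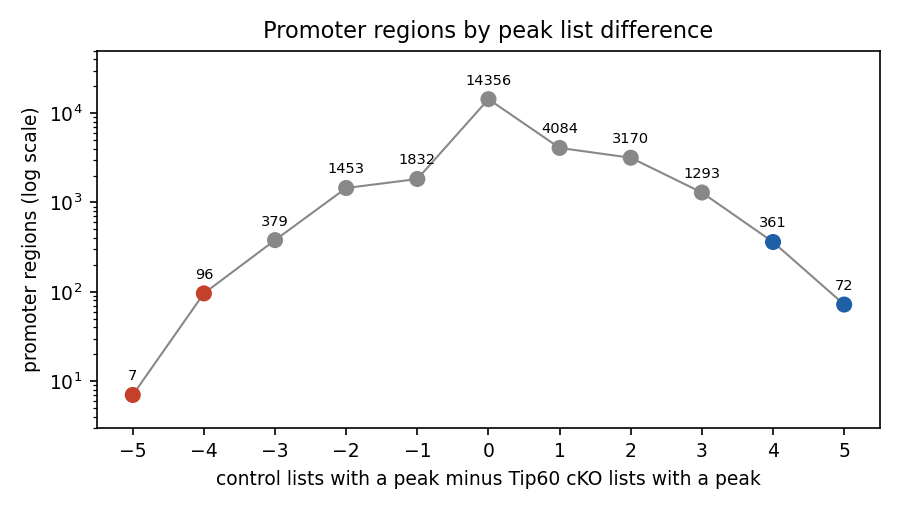
Number of promoter regions present in 2 or more lists (log scale) against the number of control lists minus the number of *Tip60* cKO lists with a peak. Blue points are lost regions (361 with a difference of 4 and 72 with 5), red points gained regions (96 and 7), and grey points all others, of which 14356 have a difference of 0.

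Lost regions made up 80.8% of the promoter regions that differed in either direction. This share and the members themselves moved with the lists. Without *Tip60* cKO 5, and with at most 1 discordant list among the other 9, the counts were 503 lost and 314 gained regions (61.6% lost), and without control 4 they were 938 and 118 (88.8% lost). Leaving out a list loosens the rule, so these counts tend to rise by construction. The genotypes then also have unequal numbers of lists, whose part in the share was not tested. When every list was cut to the same number of strongest peaks, 369 lost and 178 gained regions were found (67.5% lost), and only 93 of the 433 regions overlapped a lost region of that setting. Lost regions outnumbered gained regions in each of these settings. The size of the imbalance differed between these settings, and the part of list length in it was not tested. Away from TSSs 2.41% of 116838 regions were lost and 0.526% gained.

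To obtain a measure that the choice of regions had not used, each library was left out in turn, the regions were chosen on the other 9, and the left-out library was then examined. Lost regions chosen this way had a peak in 58.2 ± 11.4% of cases in the left-out control libraries (SD, n = 5) and in 38.7 ± 14.8% in the left-out *Tip60* cKO libraries. The single values were 59.6, 64.9, 55.8, 40.4 and 70.5% in controls 1 to 5 and 56.4, 40.9, 42.5, 38.4 and 15.5% in *Tip60* cKO 1 to 5. The groups overlap, since *Tip60* cKO 1 lay above control 3 and control 4, and *Tip60* cKO 2 and 3 lay above control 4.

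A difference between the genotypes was also seen in promoter regions of a similar number of lists in general. Those with a peak in 4 to 6 of the other lists had one in 60.1 ± 9.80% of cases in the left-out control and 44.6 ± 14.4% in the left-out *Tip60* cKO libraries, and those in 3 to 5 lists in 47.3 ± 9.68 and 34.2 ± 12.1%. For the lost regions the range of lists differs between the rounds, so each is set against its own range. Promoter regions with a peak in 3 to 5 of the other lists, the range of the lost regions chosen without a control library, had one in 47.3 ± 9.68% of cases in the left-out control. Those with a peak in 4 to 6 of the other lists, the range of the lost regions chosen without a *Tip60* cKO library, had one in 44.6 ± 14.4% in the left-out *Tip60* cKO library. Lost regions were above this background in 5 of 5 control libraries and below it in 5 of 5 *Tip60* cKO libraries. The background, here and for the gained regions below, has the same range of lists. It was not matched on the number of lists within the range, whose part in these departures was not tested. Gained regions chosen in the same way went the other way, with a peak in 33.3 ± 10.8% of cases in left-out control and 46.9 ± 16.7% in left-out *Tip60* cKO libraries. Their ranges of lists are the reverse, 4 to 6 for a left-out control (background 60.1%) and 3 to 5 for a left-out *Tip60* cKO library (34.2%), so gained regions departed further from their background than lost regions did, in both genotypes. The sets chosen in the 10 rounds share many regions, so the values are not independent of each other. In a left-out *Tip60* cKO library with a long list, *Tip60* cKO 1, most regions chosen as lost in the other 9 lists still had a peak.

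**Figure D2:**
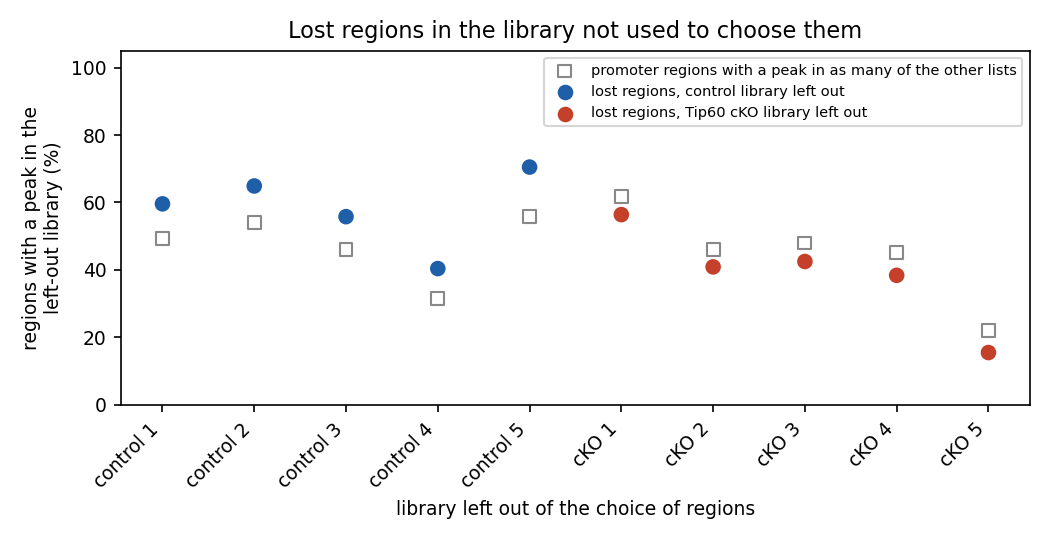
Percent of lost regions with a peak in the library that was left out of their choice, for control (blue) and *Tip60* cKO (red) libraries. Open squares are promoter regions with a peak in the same range of the other 9 lists (3 to 5 for a control, 4 to 6 for a *Tip60* cKO library), not matched within that range. Blue points lie above their squares in all 5 control libraries and red points below theirs in all 5 *Tip60* cKO libraries, and *Tip60* cKO 5 is lowest at 15.5%.

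Lost regions were of middling strength in the controls. Fold enrichment is the authors' ratio of the ChIP pileup to the local background from the input, and the percent rank places a peak among all autosomal peaks of its own list, with 100 for the strongest. The median percent rank of the lost regions was 52.1 ± 2.76 in the control lists (SD, n = 5; 50.1, 54.0, 51.4, 49.3 and 55.9), whereas promoter regions with a peak in all 10 lists had 92.8 ± 1.16. On the fold enrichment scale the medians were 3.56 ± 0.113 and 6.00 ± 0.214. Strength was not compared with that of promoter regions in 4 to 6 lists. Regions just outside the rule had a similar control percent rank, as given below. The mean control fold enrichment of a lost region ran from 2.71 to 5.62, with 3.13 and 4.17 as the 10th and 90th percentiles. The weakest peaks of the *Tip60* cKO lists, at the 5th percentile of each list, had a mean fold enrichment of 2.68, and the median lost region in the controls was 1.33 times as high. For 72 lost regions this ratio was above 1.5, and for 1 it was above 2. Most lost regions thus lay less than 1.5 times above the weakest *Tip60* cKO peaks. Of the control peaks in lost regions 95.0% had a q-value below 0.01.

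**Figure D3:**
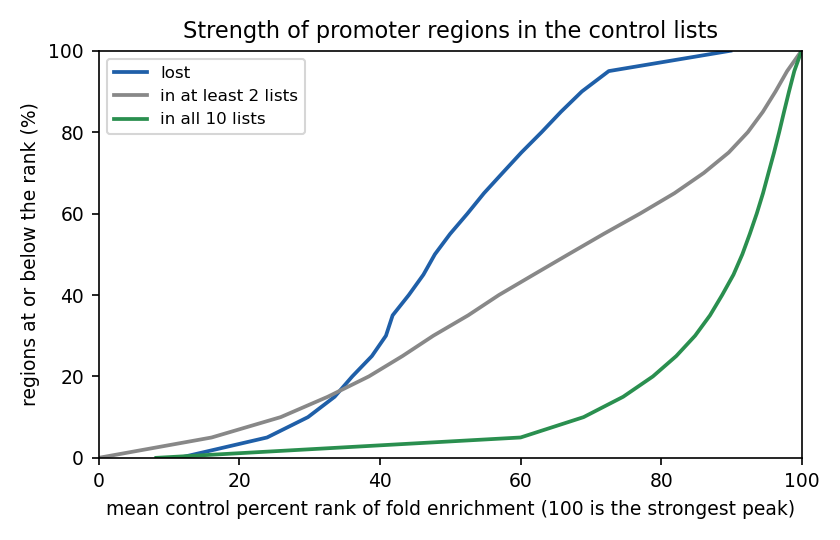
Cumulative percent of promoter regions against their mean percent rank of fold enrichment in the control lists, for lost regions (blue), regions present in 2 or more lists (grey) and regions with a peak in all 10 lists (green). The blue curve crosses 50% at a rank of 47.8, the grey at 66.8 and the green at 91.6.

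Of 7 genes with more than 1 lost region 6 are named, led by *Txlna*, which encodes alpha-taxilin, a syntaxin-binding protein of vesicle traffic. *Txlna* (ENSMUSG00000053841.15, minus strand, TSS at chromosome 4, 129641065) held 4 lost regions. The strongest, at chr4:129641198-129642208 upstream of the TSS, had a fold enrichment of 4.17, 3.93, 4.37, 4.54 and 4.19 in controls 1 to 5 and no peak in any *Tip60* cKO list. It ranked highest among all 72 regions with a difference of 5 by its lowest control percent rank, 71.4. The region over the TSS (chr4:129640800-129641075) had a fold enrichment of 3.89, 4.07, 3.89, 4.09 and 3.86 in the controls and 3.41 in *Tip60* cKO 1. The other two, at chr4:129642377-129643530 upstream and chr4:129639169-129639654 downstream of the TSS, had 3.25 ± 0.404 (n = 5) and 3.27 ± 0.842 (n = 4 controls with a peak) and no *Tip60* cKO peak. No other region of this window was kept in the *Tip60* cKO lists, a kept region being one with a peak in at least 4 of them.

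*Nhlh1*, a basic helix-loop-helix transcription factor of the nervous system, held 2 neighbouring lost regions in its intron at chr1:172057058-172057495 and chr1:172056347-172057050. In controls 1 to 5 the first had a fold enrichment of 4.45, 3.86, 5.22, 5.18 and 3.77, with no *Tip60* cKO peak. The second had 4.23, 3.25, 4.08, 3.83 and 4.57, with a single *Tip60* cKO peak of 2.83 in library 1, below every control value. Both lay beside a kept region. The antisense gene *Gm17259*, *AC165962.2*, the lincRNA gene *Gm40932* and *Mir3098* held 2 lost regions each, with control means between 3.08 and 4.01. Where 1 of these regions had a *Tip60* cKO peak, its value lay within the control range. The values were 2.47 at *Gm17259* and 4.78 at *Gm40932* in library 2, and 3.90 at *AC165962.2* in library 1. *Mir3098* had 3.32 in library 2 and 2.90 in library 1. The window of *Mir3098* also held a gained region over the TSS (chr6:125195590-125196189), with a peak of 3.81 in control 3 and of 4.20, 2.46, 3.29, 4.47 and 2.64 in *Tip60* cKO 1 to 5, so that peaks of this window differed in both directions and its kept region is a gained one. Antisense transcription cannot be assigned from a histone mark, and 1 of the *Gm17259* regions also lies in the window of *Cetn3*, which encodes a centrin of the centrosome.

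Among the regions at TSSs without any *Tip60* cKO peak, *Pdyn* encodes prodynorphin, the precursor of the dynorphin opioid peptides, which dentate granule cells make. Its lost region (chr2:129699321-129700193), which spans all of the printed window with its TATA box, had a fold enrichment of 2.94, 3.45, 4.31, 3.21 and 3.18 in controls 1 to 5. *Gpld1*, a phospholipase that releases proteins from their glycosylphosphatidylinositol anchors, had 2.81, 4.27, 4.54, 2.87 and 4.37 at chr13:24942554-24943244. *Sec14l5*, of the SEC14-like lipid-binding proteins, had 3.81, 3.05, 4.99, 3.32 and 2.78 at chr16:5146839-5147277. In each of these genes control 3 was highest.

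*Slc25a18*, a mitochondrial glutamate carrier, had the highest lowest control percent rank of this group, 24.9, and a fold enrichment of 3.34 ± 0.312 over the 5 controls at chr6:120773429-120774538. *Anxa4*, a calcium-dependent phospholipid-binding annexin, was weakest, with 3.03 ± 0.619 at chr6:86793095-86793735 and a lowest percent rank of 2.79. *Aldoart2*, an intronless aldolase gene, had 3.68 ± 0.557, the olfactory receptor gene *Olfr527* 3.18 ± 0.487, and *Mien1*, a membrane-anchored protein linked to cell migration, 3.21 ± 0.530. Reads of *Aldoart2* could be shared with its multi-exon paralogue, which was not tested. The rule allowed 15 such regions and only 8 existed.

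**Figure D4:**
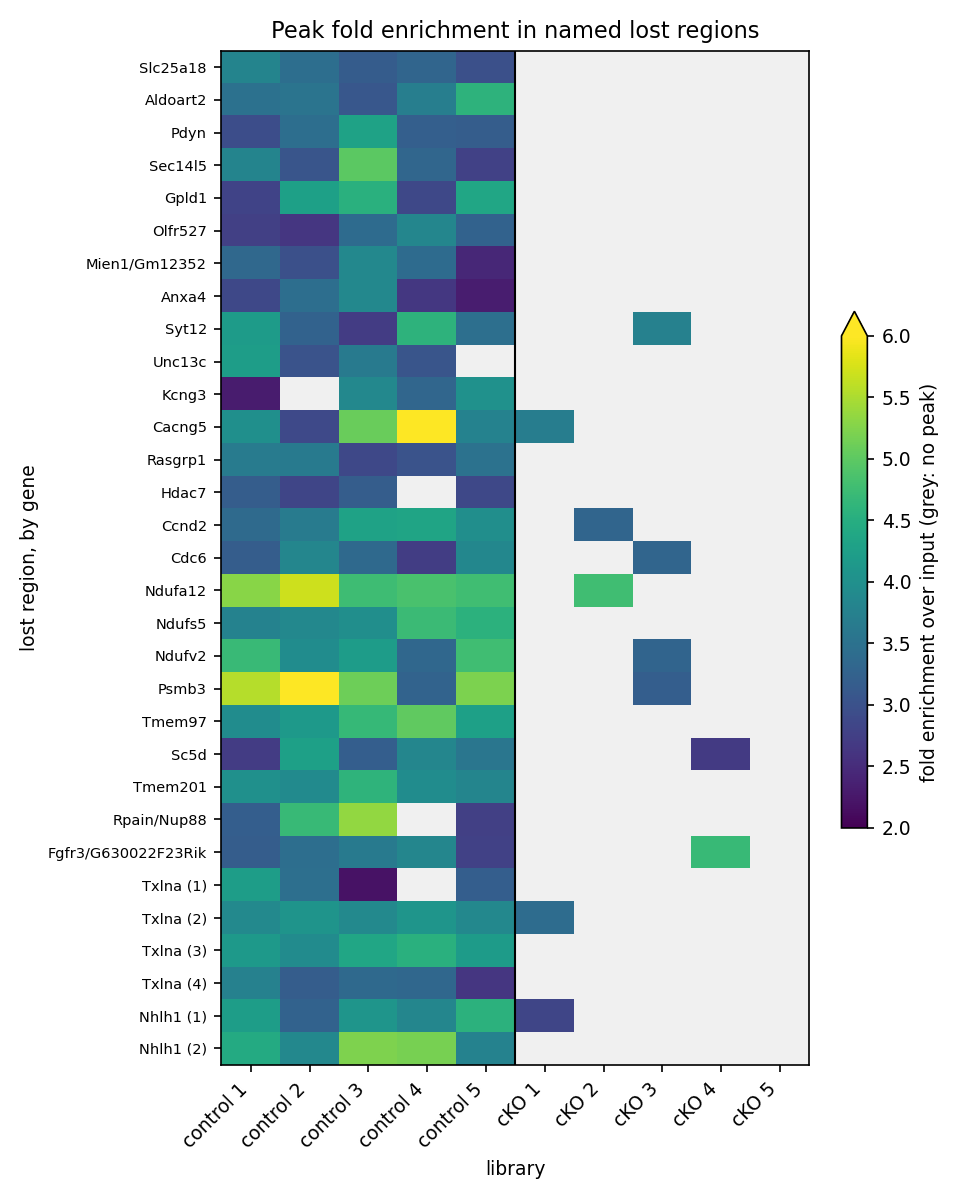
Fold enrichment of the strongest peak in the lost regions over protein-coding TSSs, of the gene lists and of *Txlna* and *Nhlh1* (a line per region) in the 10 libraries; grey cells have no peak, and values above 6 are drawn in the colour of 6. Control columns are filled in all but 5 cells, while *Tip60* cKO columns are grey except for single cells, as with *Ndufa12* in cKO 2 (4.78) and *Fgfr3* in cKO 4 (4.70).

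Of the 504 genes with a lost region, 442 (87.7%) had a peak anywhere in the TSS window in at least 1 *Tip60* cKO list, 270 (53.6%) in at least 4 of them and 62 (12.3%) in none. Among 21285 genes with a peak in the TSS window in at least 2 lists, 26 had one in all 5 control lists and in no *Tip60* cKO list, or 0.122%, beside 5 genes (0.0235%) in the mirror-image direction. Leaving out a library makes this rule looser, so the count can only stay or rise. It was 67 genes without *Tip60* cKO 1, 47 without control 4 and also without *Tip60* cKO 2, 44 without control 1, 42 without *Tip60* cKO 4 and 28 to 39 when any other library was left out. Of the 26 genes 16 are protein-coding, and 22 hold a lost region. Coverage, the percent of the 4 kb window lying in peaks, was small for all of them in the controls. Among the protein-coding genes it was highest at *Pdyn* with 13.2 ± 8.50% (7.15, 21.8, 23.2, 7.50 and 6.47% in controls 1 to 5), where controls 2 and 3 lay well above the others. *Epb41l4a*, a FERM-domain protein of the membrane skeleton, followed among the protein-coding genes with 12.5 ± 9.06%, where control 2 had 27.2% and control 5 had 5.17%.

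The divergent genes *Xab2*, a splicing factor that also acts in transcription-coupled repair, and *Pet100*, an assembly factor of cytochrome c oxidase, share the peaks of 1 window and each had 19.6% in control 2 and 8.02 to 9.77% in the other controls. *Aldoart2* had 11.3 ± 3.63%, *Gpld1* 10.3 ± 4.76%, *Mien1* 10.1 ± 4.41% and *Olfr527* 9.42 ± 3.82%. *Pnrc1*, a nuclear receptor coactivator, had 9.32 ± 3.28% and the phosphatase gene *Dupd1* 8.54 ± 2.73%. None of these genes had any *Tip60* cKO peak in the window.

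Position about the TSS set the lost regions apart from constitutive promoter peaks, but not from other promoter regions of as many lists. Only 74 of the 433 lost regions, or 17.1%, contained a TSS, against 66.7% of the 10951 promoter regions with a peak in all 10 lists and 20.1% of the 4603 with a peak in 4 to 6 lists. The centre of 38.3% lay within 500 bases of the nearest TSS and that of 38.6% more than 1000 bases away. In regions of all 10 lists these shares were 60.2 and 16.8%, and in regions of 4 to 6 lists 41.2 and 39.8%. The median length was 595 bp, against 1415 bp and 583 bp. By their centres, 182 lost regions lay in introns, 116 in exons and 135 outside genes. The lost regions are themselves 9.41% of the regions in 4 to 6 lists, so the latter are not an independent group.

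**Figure D5:**
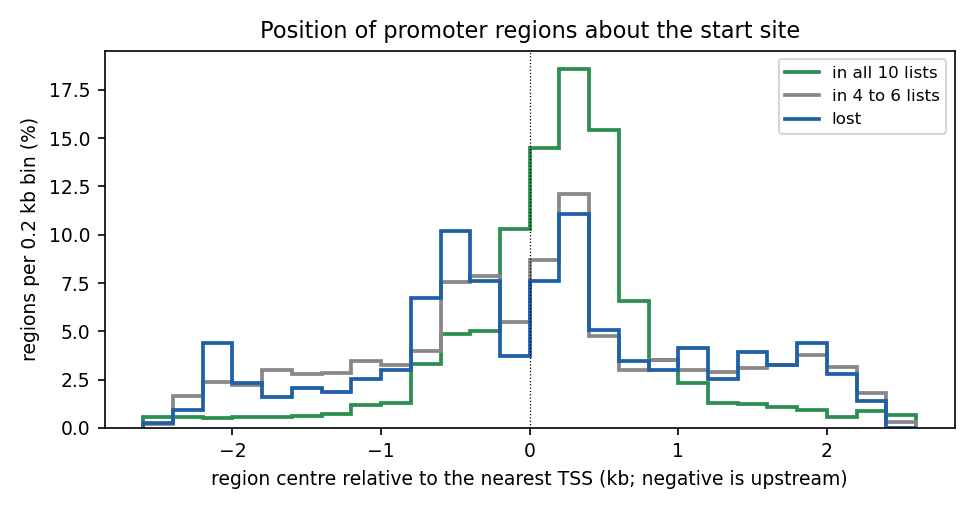
Percent of promoter regions per 0.2 kb bin of distance from the nearest TSS to the region centre, for lost regions (blue), regions in 4 to 6 lists (grey) and regions in all 10 lists (green). Green regions concentrate just downstream of the TSS, with 60.2% within 500 bases, whereas the blue and grey outlines run close to each other, with 38.3 and 41.2%, and dip at the TSS.

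Lost regions lay beside a kept region about as often as other promoter regions of as many lists. In 215 of 433 regions (49.7%) the same TSS window held another region with a peak in at least 4 *Tip60* cKO lists, at a median gap of 197 bases (25th and 75th percentiles, 116 and 456). This share was 48.9% in the regions of 4 to 6 lists and 44.7% in the gained regions, so the shares of the 3 sets were close to each other. When peaks within 200 bases were merged, 290 lost regions were found, 34.8% of them beside a kept region, and 251 of the 433 regions (58.0%) overlapped one of them. Grouped by place, 74 regions contained a TSS, 198 lay beside a kept region without a TSS, and 161 had neither. Their median control fold enrichments were 3.59, 3.51 and 3.61, so strength did not separate the groups.

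Among the regions with a difference of 5, several of those with the highest lowest control percent rank lay beside a kept region. *Tmem97*, the sigma-2 receptor of the endoplasmic reticulum, lost a region of 432 bp in its intron (chr11:78550296-78550727) with a fold enrichment of 3.94, 4.17, 4.68, 5.02 and 4.27 in controls 1 to 5. *Ndufs5*, a subunit of mitochondrial complex I, lost one upstream of its TSS (chr4:123718312-123718759) with 3.78, 3.86, 3.97, 4.72 and 4.57. *Tmem201*, a protein of the inner nuclear membrane, lost one at chr4:149738204-149739010 with 4.01, 3.91, 4.60, 3.94 and 3.82. None had a *Tip60* cKO peak, and each lay beside a region that was kept. All control values of these regions exceeded 2.68, the mean fold enrichment of the weakest *Tip60* cKO peaks. Their choice by a high lowest control percent rank makes this so, and nothing is read from it. A further pair of cases outside the naming rule, chosen after their values were seen, were the shared window of *Pus7l* and *Irak4* (5.06 ± 1.35) and the region over *Snord13* in the window of *Tti2* (5.06 ± 1.15), both without a *Tip60* cKO peak.

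The nearest TSS belonged to a protein-coding gene in 244 lost regions (56.4%), an antisense gene in 40, a lincRNA gene in 37 and a processed pseudogene in 30. Protein-coding genes were nearest in 52.8% of the regions of 4 to 6 lists and in 78.6% of those of all 10 lists. In total 504 of 20814 genes with a promoter region, or 2.42%, had at least 1 lost region, and 0.601% had a gained one. The 24 gene lists looked at hold 700 distinct genes with a promoter region, of which 17 had a lost region (2.43%) and 3 a gained one. Lost regions were therefore as frequent in these lists as among all genes.

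Synaptic and activity-regulated lists held few lost regions. None of 21 glutamate receptor genes, 13 GABA and glycine receptor genes, 34 genes of postsynaptic scaffolds and adhesion, 27 activity-regulated genes and 43 genes of calcium and cAMP signalling had one. At the 2.42% seen over all genes, fewer than 2 genes would be counted in any of these lists, so a count of 0 does not set them apart. Of 39 genes of vesicle release 2 did. *Unc13c*, a priming factor of synaptic vesicles, had a fold enrichment of 4.23, 3.02, 3.63 and 3.06 over its TSS in controls 1 to 4 and no peak elsewhere. *Syt12*, a synaptotagmin, had 3.64 ± 0.754 upstream of its TSS in the 5 controls and 3.76 in *Tip60* cKO 3. In the same list *Rab3a*, a vesicle GTPase, had a gained region, with peaks in 4 *Tip60* cKO lists and in no control list. Of 58 potassium channel genes only *Kcng3*, a modifying subunit, had one, and of 29 sodium, calcium and HCN channel genes only *Cacng5*. *Cacng5*, an auxiliary subunit of AMPA receptors, had 3.99, 2.89, 5.08, 6.41 and 3.77 over its TSS in the controls and 3.70 in *Tip60* cKO 1, which lies within the control range.

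Lists of basic metabolism contributed 1 to 3 genes each. Of 71 genes of oxidative phosphorylation 3 had a lost region (4.23%, beside 2.42% over all genes), namely the complex I genes *Ndufs5*, given above, *Ndufa12* and *Ndufv2*; with so few genes nothing is read from this share. *Ndufa12* was the strongest, with 5.29, 5.69, 4.76, 4.85 and 4.77 in controls 1 to 5, but *Tip60* cKO 2 had 4.78, which exceeded the values of controls 3 and 5. *Ndufv2* had 4.20 ± 0.597 in controls and 3.29 in *Tip60* cKO 3, just below the lowest control value of 3.33. In the same list 1 gene, *Uqcrh* of complex III, had a gained region. *Psmb3*, a subunit of the proteasome core, was the only one of 63 proteasome and autophagy genes, with 5.56, 7.28, 5.12, 3.27 and 5.21 in the controls and 3.19 in *Tip60* cKO 3. Of 36 lipid and cholesterol genes 2 had a lost region, *Tmem97* and *Sc5d*, a desaturase of cholesterol synthesis, at 3.51 ± 0.597. Of 40 genes of the nuclear envelope 2 did, *Tmem201* and *Nup88*, a nuclear pore protein, whose region lies in the shared window with *Rpain*.

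Chromatin, cell cycle and signalling lists gave few members, and at 2.42% over all genes fewer than 2 would be counted in any of them. None of 17 genes of the TIP60 complex, 23 bromodomain genes and 51 genes of DNA damage response had a lost region. *Hdac7*, a class IIa deacetylase, was the only one of 23 other acetyltransferase and deacetylase genes. It was among the weakest named regions, with 3.18, 2.84, 3.18 and 2.87 in the 4 controls with a peak. Of 52 genes of replication and cell cycle, *Cdc6*, a licensing factor of replication origins, and *Ccnd2*, the D-type cyclin 2, had one, at 3.39 ± 0.476 and 3.93 ± 0.413. *Cdc6* also had a peak of 3.30 in *Tip60* cKO 3, within its control range of 2.72 to 3.85, and *Ccnd2* one of 3.31 in *Tip60* cKO 2, below its lowest control value of 3.39. In the same list *Cdkn2c*, an inhibitor of cyclin-dependent kinases, had a gained region, with peaks in all 5 *Tip60* cKO lists and in control 1. *Rasgrp1*, an exchange factor that activates RAS, was the only one of 34 genes of the MAPK pathway, with 3.67, 3.65, 2.86, 3.03 and 3.51 in the controls and no *Tip60* cKO peak. *Fgfr3*, from the list of astrocyte genes, had 3.37 ± 0.409 in controls, but its single *Tip60* cKO peak of 4.70 in library 4 was higher than every control value. The 6 astrocyte genes with a promoter region are too few for a share.

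The sequence of the lost regions resembled that of other promoter regions of as many lists. Median GC content was 51.1% (25th and 75th percentiles, 47.3 and 54.7%), against 57.6% in regions of all 10 lists and 51.8% in regions of 4 to 6 lists. The ratio of observed to expected CpG was 0.310, against 0.622 and 0.295. In the 500 bases about the centre, the GC box GGGCGG was present in 24.5% of lost regions, 58.7% of regions of all 10 lists and 26.4% of regions of 4 to 6 lists. The ETS site CCGGAAG was present in 4.85, 12.6 and 5.84%. The CCAAT box was present in 48.7, 33.1 and 44.4%, and the AP-1 site TGANTCA in 15.7, 7.94 and 11.8%. TATAAA was present in 78 of 433 lost regions (18%), in 899 of 10951 regions of all 10 lists (8.21%) and in 701 of 4603 regions of 4 to 6 lists (15.2%). The last 3 motifs were thus more frequent in the lost regions than in regions of all 10 lists, with GC content moving with them, while the shares in regions of 4 to 6 lists lay closer to those of the lost regions. The cAMP response element was present in 2 lost regions (0.462%), beside 1.52 and 0.673%.

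The input, which differs between the genotypes, was examined through the local background, which follows from pileup and fold enrichment. At peaks within 10 kb of the lost regions this background was 1.18 ± 0.00707 times the lowest background of the library in control and 1.12 ± 0.00707 times in *Tip60* cKO libraries (SD, n = 5). The 5 libraries of a genotype share 1 pooled input, so the SD is no spread between inputs. Any difference in background between the genotypes rests on 1 input each. At peaks near all promoter regions it was 1.19 ± 0.00837 and 1.12 ± 0.00548. The ratio of the former to the latter was 0.991 to 0.998 in the control and 0.998 to 1.02 in the *Tip60* cKO libraries. Relative to all promoter regions, the background near the lost regions was thus slightly higher in the *Tip60* cKO than in the control libraries, while relative to the lowest background of the library it was lower. Where no peak was listed no background could be recovered, and the part of the input in the loss of peaks was not tested.

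The border of the rule was gradual. The 361 regions with a difference of 4 had a median control percent rank of 47.8, the 1293 regions with a difference of 3 had 48.0, and the 72 regions with a difference of 5 had 48.0. These are medians over regions of the mean control percent rank, a different measure from the mean of list medians (52.1) given above. The 4 examples on each side were taken at the median control percent rank of their kind, so their strengths are alike by choice. Just inside lay *Myc*, *Gnb5*, *Aatf* and *Gm13782*. The region upstream of *Myc*, a transcription factor of growth, had a fold enrichment of 3.57, 3.25, 2.45, 4.34 and 3.83 in controls 1 to 5 and 3.75 in *Tip60* cKO 4, inside the control range. The region over the TSS of *Gnb5*, a G protein beta subunit, had 4.41, 2.84, 3.63, 3.83 and 3.18 in the controls and 2.83 in *Tip60* cKO 4. Just outside lay *Acot11*, *1700030L20Rik*, *Lyzl6* and *Gm16546*. *Acot11*, an acyl-CoA thioesterase, had 2.75, 3.63 and 4.85 in controls 1, 3 and 4 and no peak in the other libraries.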

How the data were processed

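H4K12ac ChIP-Seq was performed by the authors on sorted hippocampal neuronal nuclei of 5 *Tip60* cKO and 5 control mice. Reads were mapped with STAR to mm10, duplicates were removed with samtools, and MACS 2.1.0.20140616 called peaks in every library (q below 0.1). For each peak the deposited files hold a pileup (a coverage signal), a fold enrichment (the authors' ratio to the local input background) and, as −log10 values computed by the authors, a p-value and a q-value. The number of peaks depends on tags per library, and the precision is the spread between 5 libraries per genotype.

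Autosomal peaks were merged where they overlapped, and presence was counted per list. Windows were 2 kb on either side of the 5′ end of 51229 genes (GENCODE M21, GRCm38). Build and sequences were checked against RefSeq. The regions, gene lists and motifs were chosen with earlier results of these data known. The rule was tested on simulated peaks. Python 3.11.15, numpy 2.4.6, pandas 2.3.3 and pysam 0.24.0 were used.

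Samples were grouped by the genotype in the labels; the lane comes from the file names. No statistical test was applied, since the regions were chosen on peak presence. Named were the regions of a difference of 5 over a protein-coding TSS (up to 15, by their lowest control percent rank), the 10 protein-coding genes without any *Tip60* cKO peak in the window and with the highest control coverage, up to 4 regions per gene list, up to 6 genes with at least 2 lost regions, and 4 regions on either side of the threshold. The background of regions in 4 to 6 or 3 to 5 lists was added after the data were examined. Alternatives were q below 0.01, an equal number of peaks per list, windows of 1 kb, all transcript starts, coverage of 25% of a region, merging within 200 bases, a difference of 5, each library left out and each lane alone.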

Additional observations from a re-analysis of the deposited data

Results flagged for a closer look

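Among 5 libraries of a group, or 4 where a region had 4 control peaks, 67 sets of values were searched for a library far from the others, and 4 were found. Chance gives about 1 in 20 sets. The median percent rank of promoter regions present in all 10 lists was lowest in control 4 (90.8) and in *Tip60* cKO 5 (83.0), which are the libraries with the shortest lists of their groups. Fold enrichment at the lost region of *Tmem201* was highest in control 3, at 4.60, and that at 1 of the 2 lost regions of *Gm40932* was lowest, at 3.08, in 1 of the 4 controls with a peak.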

How the results depend on the processing

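No paired analysis was possible because the results come from no test and same-numbered mice of the genotypes were different animals. With q below 0.01, 437 lost regions were found, and 361 of the 433 overlapped one of them. With the same number of peaks per list the lost share was 67.5%, 41.7% lay beside a kept region, 22.8% contained a TSS and GC content was 52.6%. With windows of 1 kb, 23.8% contained a TSS. With all transcript starts, 686 regions were lost, 44.6% beside a kept region and 25.2% over a TSS, with 51 whole-window losses; with 25% cover, the control percent rank was 57.8, 43.0% lay beside a kept region and 23.0% contained a TSS. Merging within 200 bases gave 34.8 and 23.8% for these shares. A difference of 5 left 72 regions, 91.1% of those differing. On lane 7 alone (3 against 3 lists, no discordant list) 385 regions were lost and 189 gained, a lost share of 67.1%. The percent rank was 46.3, 66.0% lay beside a kept region, GC content was 52.1% and 114 windows were lost. On lane 8 alone (2 against 2) 1824 regions were lost, a share of 85.0%, with 73.5% beside a kept region, 13.0% over a TSS, GC content 51.8% and 715 windows lost. For whole-window losses fewer lists make the rule looser by construction. For lost regions the lanes allow no discordant list, so their counts are not compared with the 433.

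Leaving out each library, with at most 1 discordant list among 9, gave 503 to 938 lost regions, the lowest without *Tip60* cKO 5 and the highest without control 4. This rule is looser than the one on all lists, so the counts are not compared with the count from all lists. The lost share ran from 61.6 to 88.8%, the control percent rank from 47.8 to 55.4, the share beside a kept region from 48.6 to 55.5%, that over a TSS from 13.0 to 19.9% and GC content from 50.6 to 51.5%. Whole-window losses were 210 to 401, and 28 to 67 with no discordant list (added after the data were examined), among them 44 without control 1, 47 without control 4 or *Tip60* cKO 2, and 42 without *Tip60* cKO 4. Without control 4 and *Tip60* cKO 5, added after the data were examined, 1035 regions were lost and 362 gained (74.1% lost). The other causes were not tested. Lists of peaks limit every value to what passed the threshold at the depth of the library.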
